A study of Mus musculus with 6 samples.

Results

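The genes that write, copy and erase DNA methylation were followed from mouse embryonic stem cells to neural progenitors. They were chosen by name, as every probe that the platform annotation assigns to Dnmt1, Dnmt3a, Dnmt3b, Dnmt3l, Uhrf1, Uhrf2, Tet1, Tet2, Tet3 or Tdg. All 10 genes were on the array, with 22 probes, among 21893 named genes. The ESC group was 3 biological replicates of undifferentiated 46c cells, a line of strain 129/Ola in which GFP reports the neural gene Sox1. The title of ESC replicate 3 spells the line differently from the other titles, while its source name gives 46c. The NPC group was 3 biological replicates of the same single line that had been differentiated for 5 days in medium with NB27 and Neuro2 supplements and then sorted by FACS on GFP. The gate of the sort is not described, and only the NPC were sorted, so sorting and differentiation cannot be told apart. How the replicates were separated is not described either, so p-values measure the spread between these samples. Transcripts were measured; DNA methylation itself was not.

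DNA methylation in mammals sits mostly on the cytosine of CG dinucleotides. DNMT3A and DNMT3B place new methyl groups, with DNMT3L as a catalytically inactive partner, and DNMT1 copies the pattern onto the new strand after replication, guided by UHRF1, which binds hemimethylated CG. TET enzymes oxidise methylcytosine, and the glycosylase TDG removes the further oxidised bases for repair. In the mouse embryo and its ES cells, Dnmt3b, Dnmt3l, Tet1 and Tet2 are well known as genes of the pluripotent state.

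Values are log2 signals from Agilent arrays with 1 colour, quantile normalised, so that all arrays share a median of 5.32 and a range of 1.03 to 16.18. Changes are NPC minus ESC on the log2 scale ± SE (n = 3 in each group), tested with limma and adjusted by Benjamini-Hochberg. A gene is called to have risen or fallen when its adjusted p over all 21893 genes is under 0.05, and it stands by its probe of highest mean. Probes differ in affinity, so the level of a probe is set only against itself on other arrays. The number of arrays limits the precision.

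The markers of the labelled cell types moved as follows. Of the ES cell markers 11 of 13 fell, among them Pou5f1, which encodes Oct4 (-7.75 ± 0.32), Zfp42 (-8.56 ± 0.37) and Fgf4 (-8.34 ± 0.22), and the mean of the list ran from 12.55 to 12.65 on the ESC arrays and from 6.44 to 6.69 on the NPC arrays. The Nanog probe averaged 6.93 against 7.52 and gave no call (adjusted p = 0.258). Of the neural progenitor markers 7 of 10 rose, Fabp7 by 10.54 ± 0.24, Hes5 by 8.79 ± 0.24 and Sox1, the reporter gene, by 3.01 ± 0.39. Of the neuron markers 7 of 10 rose, Dcx by 6.24 ± 0.94 and Nefm by 4.65 ± 1.03, with list means of 8.39 to 8.97 in ESC and 11.03 to 11.59 in NPC. Of the primitive endoderm markers 3 of 8 rose and 1 fell, with changes of 5.69 ± 0.35 for Foxa2, which also marks the floor plate, and -2.81 ± 0.58 for Sox7, and with list means of 4.07 to 4.50 and 4.82 to 5.20. Of the trophectoderm markers 5 of 7 fell, including Tfap2c (-5.81 ± 0.25) and Cdx2 (-3.99 ± 0.19), and of the mesoderm markers 2 of 7 fell, Eomes (-2.67 ± 0.34) and Mesp1 (-2.09 ± 0.27). The calls of Nefm and Sox7 ended in 3 of the 6 fits that left out 1 array (highest adjusted p 0.0799 and 0.0816, both without ESC replicate 1). Several of these probes are dim. With values under 6 set to 6, the neuron markers gave 4 higher, the primitive endoderm markers 1 higher and 0 lower, the trophectoderm markers 4 lower and the mesoderm markers 1 lower. Cdx2, Mesp1 and Sox7, whose values all lay under 6, then changed by 0, Eomes by -1.12, Dcx by 3.79 and Nefm by 3.64, the last without a call (adjusted p = 0.0914). The change of Dcx was 2.89 as the mean of its probes, and its other probes gave 0.84 and 1.61 without passing. The other probe of Sox1 gave 0.91 ± 0.68 without passing (adjusted p = 0.542 over all probes). As the mean of its probes Sox1 rose by 1.96 (adjusted p = 0.0317). Because the NPC were sorted on its reporter, the rise of Sox1 cannot be told apart from the sort. The part of these cell types in the results that follow was not tested.

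The 250 bases before a RefSeq transcript start (GRCm38.p6) are shown for the members that changed, because the members differ widely in CG dinucleotides, the substrate of their own enzymes. CG is in capitals, and the strand is that of the gene. Dnmt3b lies at chr2:153649199-153649448 on the plus strand and Dnmt3l at chr10:78042037-78042286 on the plus strand. Tet1 lies at chr10:62887325-62887574 and Tet2 at chr3:133544391-133544640, both on the minus strand. Uhrf2 lies at chr19:30030263-30030512 on the plus strand.
Dnmt3b: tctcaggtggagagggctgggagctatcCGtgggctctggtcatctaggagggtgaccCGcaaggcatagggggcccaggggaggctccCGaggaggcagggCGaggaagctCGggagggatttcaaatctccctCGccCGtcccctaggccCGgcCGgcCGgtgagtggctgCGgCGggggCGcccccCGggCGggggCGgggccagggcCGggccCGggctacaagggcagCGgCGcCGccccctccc
Dnmt3l: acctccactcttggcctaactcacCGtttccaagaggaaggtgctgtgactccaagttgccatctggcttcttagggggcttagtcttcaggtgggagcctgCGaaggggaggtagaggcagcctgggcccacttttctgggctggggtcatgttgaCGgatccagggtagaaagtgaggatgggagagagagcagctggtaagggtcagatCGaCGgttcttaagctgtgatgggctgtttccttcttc
Tet1: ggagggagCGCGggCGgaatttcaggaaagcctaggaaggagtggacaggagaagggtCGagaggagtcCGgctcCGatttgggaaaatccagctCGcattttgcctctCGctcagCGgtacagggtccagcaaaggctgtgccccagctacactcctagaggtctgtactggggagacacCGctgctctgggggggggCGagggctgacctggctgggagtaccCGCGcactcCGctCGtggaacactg
Tet2: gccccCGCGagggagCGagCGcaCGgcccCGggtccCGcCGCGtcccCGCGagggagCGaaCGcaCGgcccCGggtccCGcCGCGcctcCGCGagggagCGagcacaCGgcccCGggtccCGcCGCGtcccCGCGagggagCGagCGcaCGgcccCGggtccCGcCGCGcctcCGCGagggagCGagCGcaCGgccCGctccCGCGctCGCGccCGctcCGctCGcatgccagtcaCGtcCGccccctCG
Uhrf2: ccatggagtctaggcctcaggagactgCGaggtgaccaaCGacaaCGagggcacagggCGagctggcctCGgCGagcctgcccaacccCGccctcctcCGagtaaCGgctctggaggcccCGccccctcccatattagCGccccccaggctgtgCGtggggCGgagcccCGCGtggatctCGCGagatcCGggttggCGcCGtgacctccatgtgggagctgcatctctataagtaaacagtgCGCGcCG

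These stretches hold 21 CG in Dnmt3b, 5 in Dnmt3l, 15 in Tet1, 51 in Tet2 and 23 in Uhrf2. Over 32851 windows of all genes the median was 6, the 25th percentile 2 and the 75th percentile 16. Dnmt3l has a pair of further annotated starts, with 4 and 3 CG. Its windows were the poorest in CG except for the most upstream start of Dnmt1, which had 2. Of the 3 windows of Dnmt3a, the most upstream pair held 38 and 40 CG and the other 15. No methylation was read at any of these sites, and which start the probes report was not tested.

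**Figure D1:**
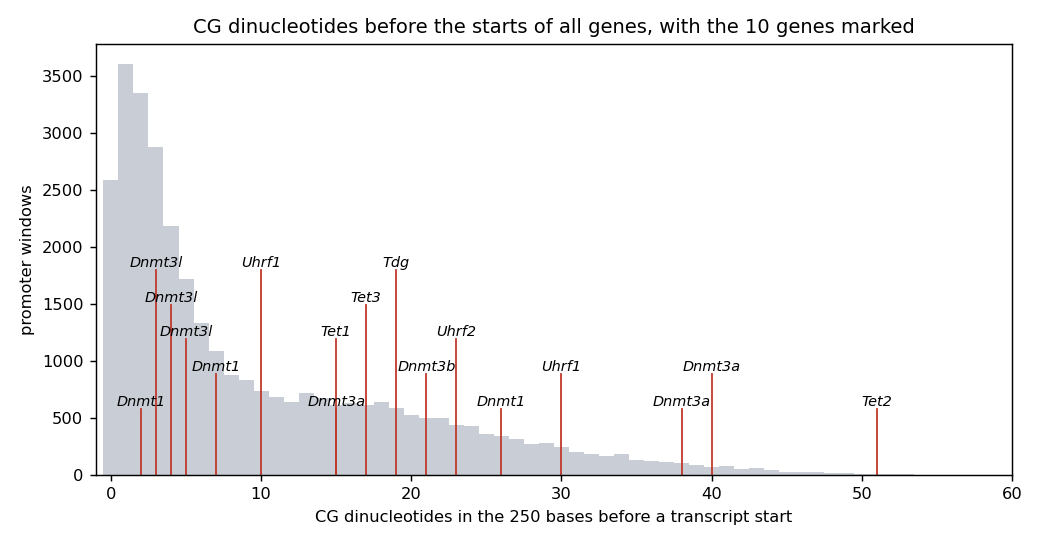
Number of CG dinucleotides in the 250 bases before each annotated transcript start (x axis) against the number of windows (y axis) for 32851 windows, with red lines at the windows of the 10 genes. Dnmt3l lies at 3 to 5 CG, near the median of 6, and Tet2 lies at 51.

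Of the 10 genes, Dnmt3b, Dnmt3l, Tet1 and Tet2 fell and Uhrf2 rose. Over all genes 20.6% were called, 11.1% as higher and 9.54% as lower in NPC, and the medians of change were -0.03 over the 10 genes and 0.01 over all. The groups did not overlap for 6 of the 10 genes, against 37.0% of all genes. With the replicate number as a block, which called 35.7% of all genes, Dnmt3a and Tdg rose as well, giving 3 higher and 4 lower. The falls held in each fit over the 21893 genes that left out 1 array. In a bulk sample, fewer cells that express a gene and less RNA per cell cannot be told apart.

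Of the de novo writers and their partner, Dnmt3l and Dnmt3b fell, while Dnmt3a was higher in NPC without passing. Dnmt3l, the partner that stimulates the de novo enzymes, had the largest change of the 10. Its probe read 14.58, 14.77 and 14.02 in ESC replicates 1 to 3 and 7.47, 6.68 and 6.55 in NPC replicates 1 to 3. Every NPC array lay over 6 log2 units below every ESC array. Dnmt3l fell by 7.56 ± 0.34, which is 189-fold (adjusted p = 0.000122), and its NPC values stayed above a floor of 6, so this change did not move with that floor. 

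Dnmt3b, the de novo methyltransferase of the early embryo, read 14.11, 14.57 and 13.71 in ESC and 11.61, 12 and 11.66 in NPC by its brightest probe. The groups did not overlap, and Dnmt3b fell by 2.37 ± 0.28, or 5.18-fold (adjusted p = 0.00256). Its other probes read 12.95 ± 0.36 in ESC and 9.91 ± 0.19 in NPC, and 12.34 ± 0.67 and 9.10 ± 0.18 (mean ± SD, n = 3). In the fit over all 55681 probes, in which 11.5% were called, these fell by 3.05 ± 0.25 (adjusted p = 0.00168) and by 3.24 ± 0.37 (adjusted p = 0.00474). All 3 probes are annotated to the same RefSeq transcript, so the Dnmt3b isoforms were not told apart.

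Dnmt3a, the other de novo methyltransferase and the main one of later development, was read by 1 probe. It gave 7.76, 8.49 and 7.24 in ESC and 8.98, 9.35 and 8.72 in NPC, so the lowest NPC array lay above the highest ESC array. The difference of 1.19 ± 0.37 (95% interval 0.27 to 2.10) did not pass (adjusted p = 0.0793). It passed with the replicate block (adjusted p = 0.0118), where the same-numbered samples differed by 1.22, 0.86 and 1.48, and without ESC replicate 2 (adjusted p = 0.0322). Dnmt3a has a long and a short isoform from separate promoters, and its 1 probe, annotated to the RefSeq transcript NM_007872, cannot give both.

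Dnmt1 and Uhrf1, the copying enzyme and its guide, did not pass. Dnmt1 read 11.98, 11.32 and 11.05 in ESC and 11.91, 11.59 and 11.67 in NPC. The groups overlapped, and the difference was 0.27 ± 0.29 (95% interval -0.44 to 0.98, adjusted p = 0.61). Uhrf1 read 13.11, 13.17 and 11.73 in ESC and 13.38, 13.27 and 12.28 in NPC. Replicate 3 was the lowest array of both groups, each NPC array lay above the ESC array of its number, and the difference was 0.31 ± 0.51 (95% interval -0.94 to 1.56, adjusted p = 0.76).

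Both genes are expressed with S phase, so the replication genes are given beside them. Of 21 measured S phase genes 0 rose and 2 fell, with a median of -0.09, and 2 rose and 2 fell with the replicate block. Ccne1, the cyclin that opens S phase, fell by 1.41 ± 0.34 (adjusted p = 0.036) and Cdt1, a licensing factor, fell by 0.80 ± 0.18 (adjusted p = 0.0254). The call of Ccne1 held only without ESC replicate 3, of the 6 fits that left out 1 array, and that of Cdt1 only without NPC replicate 3 (highest adjusted p 0.119 and 0.103, each without ESC replicate 1). Both calls ended with housekeeping scaling (adjusted p = 0.0568 for Ccne1 and 0.0771 for Cdt1). That of Ccne1 also ended with values under 6 set to 6 (0.0871), as the mean of its probes (0.105) and over all probes (0.0615), and its other probe gave -2.37 ± 1.60 without passing. That of Cdt1 ended without replicate 3 in both groups (adjusted p = 0.0717).

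The 8-letter motif TTTNNCGC, a loose form of the site of E2F factors that drive S phase genes, was searched on both strands of the 250-base windows. It was in 4.28% of all windows and in 3 of the 17 windows of the 10 genes, all of Dnmt1 or Uhrf1. Of the Dnmt1 windows only the one with 26 CG held it. The motif itself holds a CG, and the CG content of the windows was not taken into account. The matches are shown in capitals with 15 bases on each side; the 2 matches of Dnmt1 are on the opposite strand and overlap each other, so only the first is printed. Dnmt1 lies at chr9:20952820-20952857 on the minus strand, and Uhrf1 at chr17:56303266-56303303 and chr17:56304113-56304150 on the plus strand.
Dnmt1: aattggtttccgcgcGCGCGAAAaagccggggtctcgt
Uhrf1, upstream start: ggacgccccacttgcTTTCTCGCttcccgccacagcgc
Uhrf1, downstream start: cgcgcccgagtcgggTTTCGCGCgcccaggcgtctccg

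The motif is a match of letters, not a measured binding site. The octamer ATTTGCAT, bound by POU factors such as Oct4, was in none of the 17 windows of the 10 genes and in 1.6% of all windows, which says only that these letters are not there.

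Uhrf2, the relative of Uhrf1, read 11.10, 11.13 and 10.32 in ESC and 12.55, 12.53 and 11.82 in NPC. The groups did not overlap, and the same-numbered samples differed by 1.45, 1.40 and 1.5. It rose by 1.45 ± 0.34, or 2.74-fold (adjusted p = 0.0305, and 0.0031 with the replicate block). The call is a narrow one: it ended in each fit that left out 1 array except the fit without NPC replicate 3 (highest adjusted p 0.11, without NPC replicate 1), and over all probes of the table its adjusted p was 0.0529. It ended as well with values under 6 set to 6, when the probes of each gene were averaged, and after scaling on housekeeping genes (adjusted p = 0.0754, 0.0997 and 0.112). Without replicate 3 in both groups the change was 1.43 (adjusted p = 0.013).

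Among the erasers, Tet1, the main TET of mouse ES cells, fell most. It read 13.19, 13.58 and 12.20 in ESC and 9.88, 9.94 and 8.93 in NPC. The groups did not overlap, and Tet1 fell by 3.40 ± 0.46, or 10.6-fold (adjusted p = 0.00424). Over all probes its adjusted p was 0.00879, and that call ended in 1 of the 6 fits that left out 1 array (highest adjusted p 0.0513). Its other probes fell by 2.77 ± 0.63 (adjusted p = 0.0465) and 3.56 ± 0.60 (adjusted p = 0.0171) in the fit over all probes. The former lost its call in 4 of the 6 fits that left out 1 array and the latter in 2 (highest adjusted p 0.172 and 0.0758).

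Tet2, the family member without a CXXC domain of its own, read 10.47, 10.21 and 9.92 in ESC and 8.98, 8.92 and 8.78 in NPC. Its arrays stood close together within each group, and it fell by 1.30 ± 0.21, or 2.47-fold (adjusted p = 0.00829). In the fit over all probes its adjusted p was 0.015, and that call ended in 4 of the 6 fits that left out 1 array (highest adjusted p 0.0706). The remaining Tet2 probes gave -1.64 ± 0.46 and -0.87 ± 0.24, again with no overlap of the groups, and did not pass over all probes (adjusted p = 0.0874 and 0.0806). The former passed with the replicate block (adjusted p = 0.0205), and the latter is dim, at 5.73 in ESC and 4.86 in NPC.

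Tet3, the TET of the oocyte and zygote and of later neural tissue, read 8.30, 8.5 and 7.82 in ESC and 8.09, 8.16 and 7.38 in NPC. Each NPC array lay below the ESC array of its number, but the groups overlapped, and the difference of -0.33 ± 0.31 did not pass (95% interval -1.09 to 0.43, adjusted p = 0.549). Its other probes gave 0.33 ± 0.30 and -0.74 ± 0.25 without passing (adjusted p = 0.615 and 0.143), so the direction is not settled between probes. The last of these read only 3.40 in ESC and 2.67 in NPC.

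Tdg, the glycosylase that completes the oxidative route, read 8.70, 9.26 and 8.45 in ESC and 9.88, 9.91 and 9.17 in NPC. Only ESC replicate 2 and NPC replicate 3 crossed, and the difference of 0.85 ± 0.32 did not pass (adjusted p = 0.137), although it did with the replicate block (adjusted p = 0.0257). A further probe stood at 7.13 ± 0.11 and 7.18 ± 0.29 and differed by 0.04 ± 0.22 (adjusted p = 0.949).

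**Figure D2:**
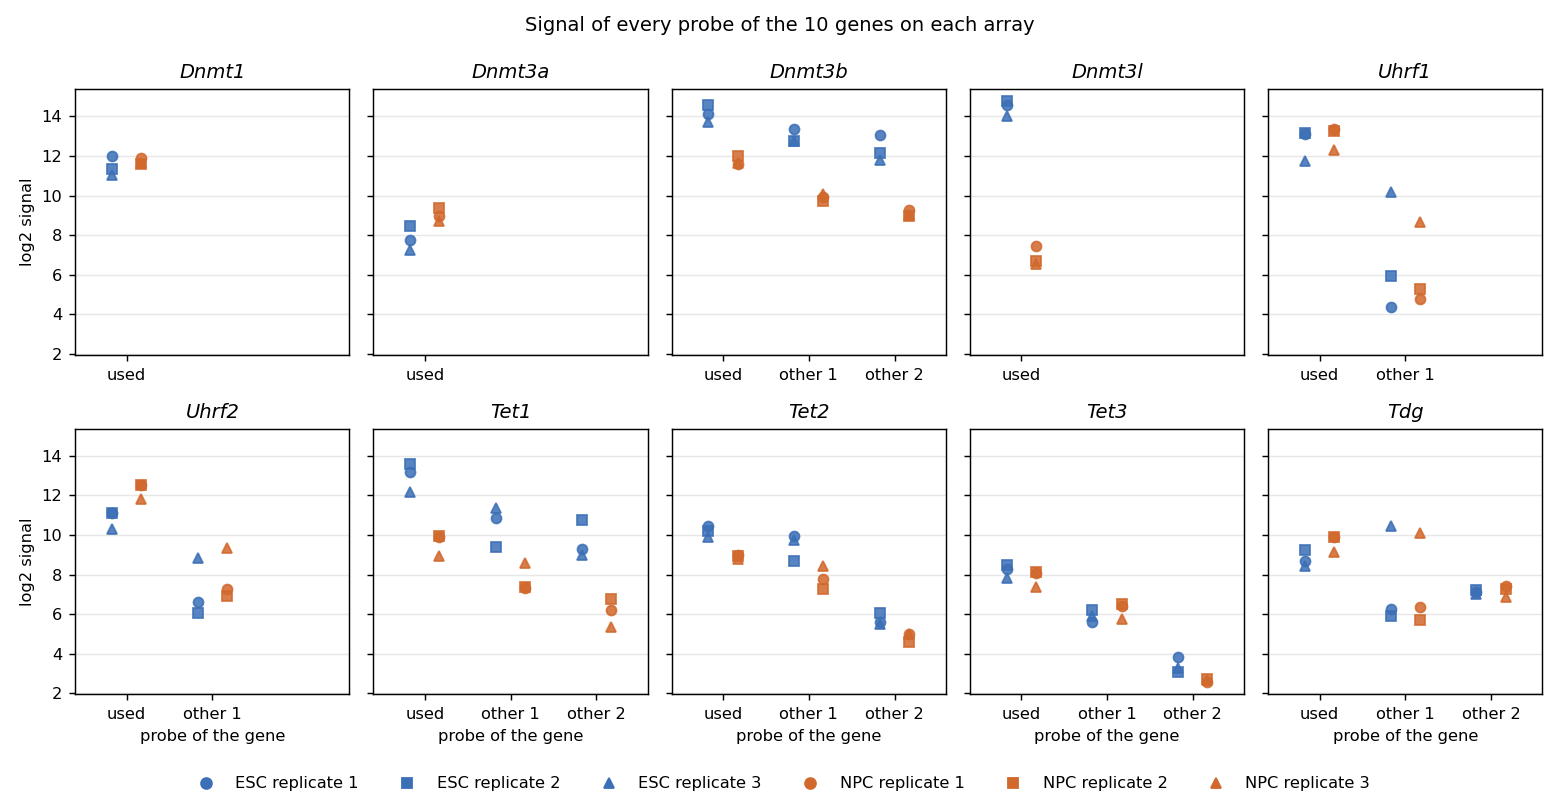
Log2 signal (y axis) of each probe (x axis; the probe of highest mean is marked used) of the 10 genes on each array, ESC in blue and NPC in orange, with a marker shape for each replicate number. Dnmt3l drops from about 14 to about 7, and single probes of Uhrf1, Uhrf2 and Tdg are high in replicate 3 of both groups.

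The third probe of Tdg followed the replicate and not the cell type. It read 6.29 and 5.90 in ESC replicates 1 and 2 and 6.38 and 5.70 in the NPC of those numbers, but 10.47 and 10.11 in replicate 3 of ESC and NPC. The Tdg copy Tdg-ps2, a pseudogene with a probe of its own, did likewise, at 5.02 to 6.58 in replicates 1 and 2 and at 10.92 and 10.12 in replicate 3. Whether Tdg probes also read the pseudogene was not tested.

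The second probe of Uhrf1 read 4.35 to 5.96 in replicates 1 and 2 and 10.20 and 8.65 in replicate 3 of ESC and NPC, while the bright Uhrf1 probe was lowest there. The second probe of Uhrf2 read 6.06 to 7.30 in replicates 1 and 2 and 8.85 and 9.33 in replicate 3. None of these 3 probes passed (adjusted p = 0.977 for Tdg, 0.908 for Uhrf1 and 0.781 for Uhrf2 over all probes). Such probes were not peculiar to the 10 genes, since 3439 of 55681 probes (6.18%) had both replicate 3 arrays over 2 log2 units above, or both over 2 below, the mean of the other arrays of their group.

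Over the 22 probes, 8 fell, 0 rose and 14 did not pass in the fit over all probes, where 11.5% of all probes were called. With the replicate block, which called 20.2% of all probes, 9 fell and 3 rose, the used probes of Dnmt3a, Uhrf2 and Tdg. The probes of Dnmt3b, Tet1 and Tet2 all had changes below 0, whereas those of Uhrf1, Tet3 and Tdg took both signs.

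**Figure D3:**
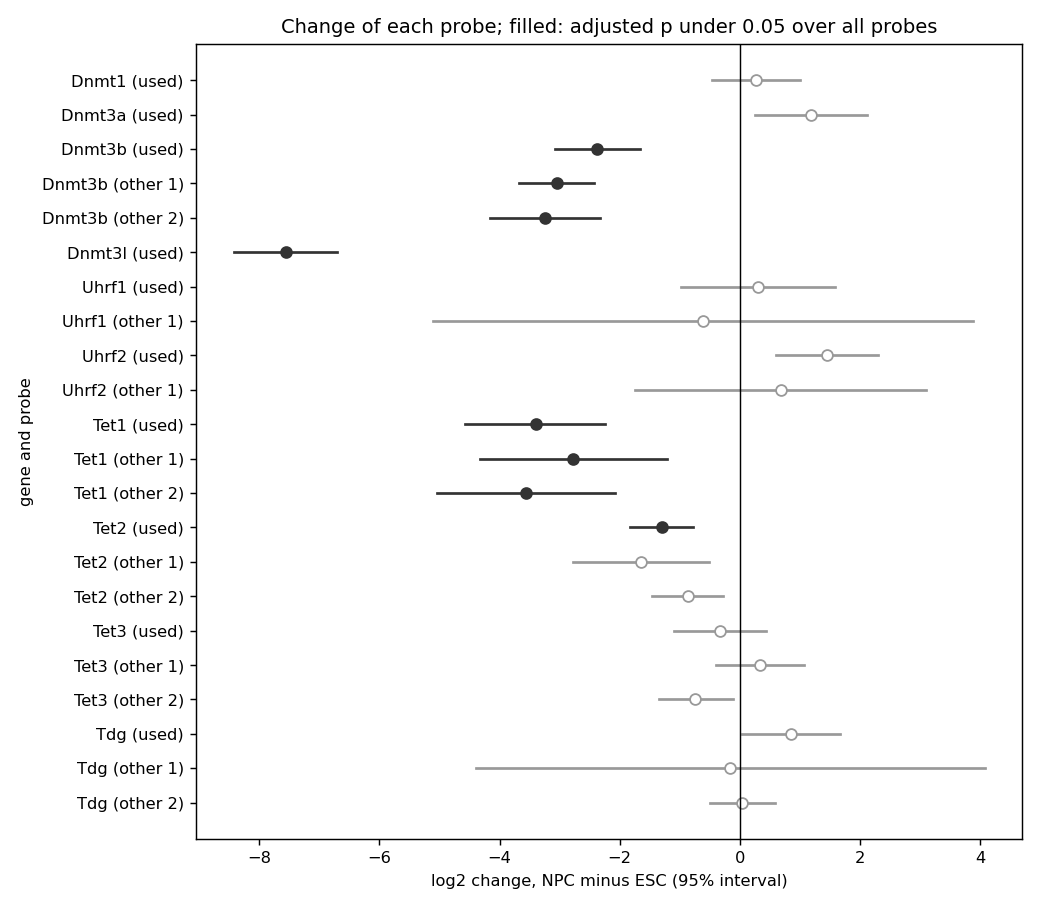
Log2 change of NPC minus ESC (x axis) with its 95% interval for each of the 22 probes (y axis), filled where the adjusted p over all 55681 probes is under 0.05. The 8 filled probes belong to Dnmt3b, Dnmt3l, Tet1 and Tet2 and all lie below 0, and the widest intervals belong to the probes that followed replicate 3.

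Related genes were compared within each array, which asks whether they changed by unequal amounts. Dnmt3a minus Dnmt3b ran from -6.46 to -6.08 in ESC and from -2.94 to -2.63 in NPC, a shift of 3.56 towards Dnmt3a (pooled SD 0.19). Dnmt3l minus Dnmt3b ran from 0.20 to 0.47 in ESC and from -5.32 to -4.15 in NPC, so Dnmt3l fell further than Dnmt3b, by 5.19 (pooled SD 0.45). Tet3 minus Tet1 shifted by 3.07 (pooled SD 0.27) and Tet2 minus Tet1 shifted by 2.10 (pooled SD 0.51), both away from Tet1.

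Uhrf2 minus Uhrf1 shifted by 1.15 (pooled SD 0.28), from a range of -2.04 to -1.42 to a range of -0.83 to -0.47. The groups did not overlap for any of the 5 pairs, and the same-numbered samples moved the same way in 3 of 3 pairs of samples for each. The two-sided exact permutation p was 0.1 for each, and 0.1 after Benjamini-Hochberg adjustment over the 5, which is the smallest that 3 against 3 arrays allow. At 3 against 3 arrays no pair could pass 0.05, so unequal change is described here and not established. A ratio also cannot tell which gene stayed still.

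**Figure D4:**
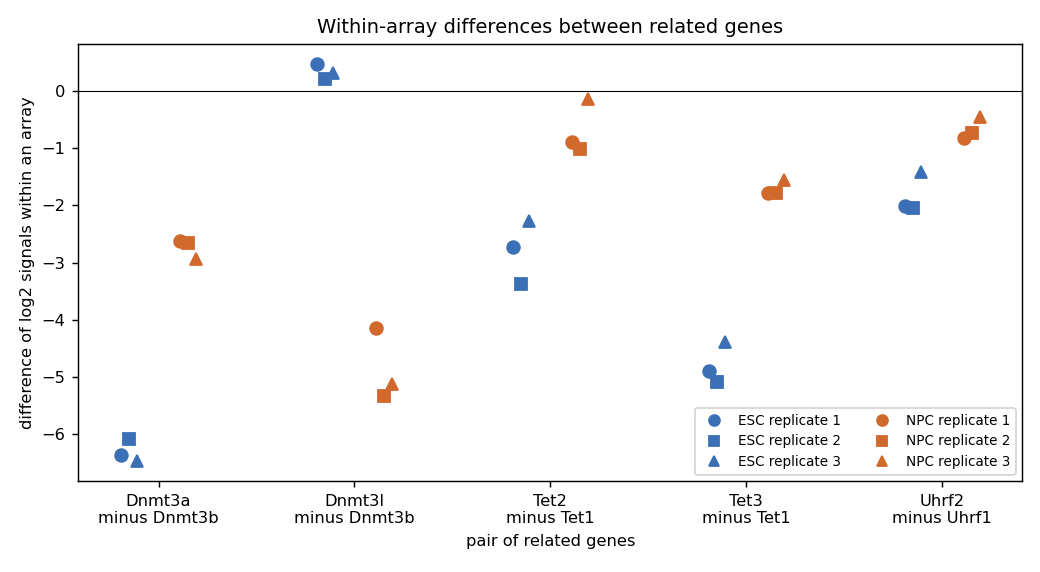
Difference of the log2 signals of related genes within an array (y axis) for 5 pairs (x axis), ESC in blue and NPC in orange, with a marker for each replicate number. Each pair has 3 ESC points apart from its 3 NPC points, and only this shift is read, since the probes differ in affinity.

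Of 8 measured regulators of the TET and DNMT genes and proteins, 2 were called lower and 0 higher, with a median of -0.29. The replicate block gave 4 lower and 0 higher. Every list count, here and in the other paragraphs, stands beside 20.6% of all genes called (11.1% higher and 9.54% lower). With the replicate block 35.7% of all genes were called. Prdm14, a PR-domain factor that represses Dnmt3b in mouse ES cells, read 9.59 ± 0.25 in ESC and 2.12 ± 0.88 in NPC and fell by 7.47 ± 0.46 (adjusted p = 0.000282). Dppa3, which keeps UHRF1 from its sites in the mouse oocyte, read 9.86 ± 0.53 and 4.52 ± 1.44 and fell by 5.34 ± 0.75 (adjusted p = 0.0049). With values under 6 set to 6 the changes were -3.59 for Prdm14 and -3.80 for Dppa3. Cxxc4, which binds TET2 and lowers its protein, did not pass by its probe of highest mean (0.52 ± 0.30, adjusted p = 0.326), but a further probe went from 1.48 to 8.09 and rose by 6.61 ± 0.27 (adjusted p = 0.000284 over all probes). Its ESC level is near the lowest value of the arrays, and that probe changed by 2.09 once values under 6 were set to 6. The third Cxxc4 probe gave 0.51 ± 0.28 without passing (adjusted p = 0.388 over all probes), and as the mean of its probes Cxxc4 rose by 2.55 (adjusted p = 0.00136). The probe of highest mean, at 4.94 in ESC and 5.46 in NPC, and the third, at 4.05 and 4.56, are dim in both groups. Both changed by 0 with values under 6 set to 6.

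Partners of maintenance methylation gave 0 calls among 12 measured genes by limma, with 2 at an unadjusted p under 0.05, and 2 higher and 4 lower with the replicate block (median -0.24). Hells, a remodeller needed for DNA methylation, read 11.91, 10.42 and 12.09 in ESC and 9.33, 8.68 and 10.76 in NPC. The difference of -1.89 ± 0.69 did not pass (adjusted p = 0.121, and 0.0118 with the replicate block). Usp7, the deubiquitinase that binds DNMT1 and UHRF1, differed by -0.47 ± 0.35 without passing (adjusted p = 0.446). Trim28, the corepressor of KRAB zinc finger proteins, gave -0.70 ± 0.28 (adjusted p = 0.157; blocked 0.0286). Its other probe, at 1.35 in ESC and 2.76 in NPC, gave 1.41 ± 0.44 without passing, and the mean of its probes gave 0.36. That positive mean rests on the dim probe, which changed by 0 with values under 6 set to 6. The bright probe still gave -0.70 there, without a call. Pclaf, a PCNA partner that helps recruit DNMT1, gave 0.59 ± 0.32 (adjusted p = 0.287; blocked 0.0302), and its dimmer probe rose by 1.99 ± 0.19 (adjusted p = 0.0028 over all probes).

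Of the readers of methylated CG, 2 of 7 measured genes rose and 0 fell, with a median of 1.01. The replicate block gave 4 higher and 2 lower. Zbtb4 rose by 1.70 ± 0.25 (adjusted p = 0.00551) and Zbtb33, which encodes Kaiso, rose by 1.39 ± 0.33 (adjusted p = 0.0319); both are zinc finger proteins that bind methylated DNA. Zbtb4 was dim, at 4.78 in ESC and 6.48 in NPC. With values under 6 set to 6 its change was 0.48 (adjusted p = 0.0629), with the mean of all probes it was 0.60 (adjusted p = 0.326), and its other probes gave 0.65 and -0.55 without passing. Zbtb33 kept its call only without NPC replicate 3 among the fits that left out 1 array (highest adjusted p 0.0941, without NPC replicate 1). It lost the call with housekeeping scaling (adjusted p = 0.118), with values under 6 set to 6 (0.0761) and over all probes (0.0549).

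Of the other base excision repair genes, glycosylases and downstream factors, 1 of 12 measured genes rose and 0 fell, with a median of -0.04. The replicate block gave 2 higher and 0 lower. Neil3, a glycosylase of oxidised bases, went from 7.49 ± 0.29 to 9.39 ± 0.12 and rose by 1.90 ± 0.22 (adjusted p = 0.00229). Mbd4, which like Tdg removes thymine from mismatches at CG, differed by -0.17 ± 0.21 and did not pass (adjusted p = 0.68).

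Deaminases and Gadd45 genes, which have been linked to active demethylation in some systems, gave 1 rise and 4 falls among 6 measured genes, with a median of -2. With values under 6 set to 6 there were 2 falls, and without replicate 3 in both groups 3. The stress-induced Gadd45b fell by 3.20 ± 0.52 (adjusted p = 0.00862) and Gadd45a fell by 2.28 ± 0.55 (adjusted p = 0.0358), while their relative Gadd45g rose by 1.93 ± 0.25 (adjusted p = 0.00353). The call of Gadd45a held only without ESC replicate 2 or without NPC replicate 3 among the fits that left out 1 array (highest adjusted p 0.129, without NPC replicate 1), and it ended with values under 6 set to 6 (adjusted p = 0.105) and over all probes (0.0624). The cytidine deaminase genes Apobec1 (-1.42 ± 0.28) and Apobec3 (-1.72 ± 0.36), named here after their values were seen, lost their calls in 3 and 4 of the 6 fits that left out 1 array (highest adjusted p 0.0725 without NPC replicate 1 and 0.0842 without ESC replicate 1).

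Genes of methyl donor metabolism and of the TET cosubstrate gave 1 call. Of the 11 listed methyl donor genes 9 were measured, and Mat2a was not among these, so the counts do not cover it. Of 9 measured methyl donor genes 0 were called by limma and 1 had an unadjusted p under 0.05, with 0 called under the replicate block as well. The brightest, Mat2b, a regulatory subunit of methionine adenosyltransferase, read 13.15 ± 0.31 and 13.28 ± 0.28, and Ahcyl1, a relative of the hydrolase of S-adenosylhomocysteine, differed by 0.69 ± 0.61 (adjusted p = 0.527). Of 7 measured genes of 2-oxoglutarate metabolism, Idh2, the mitochondrial isocitrate dehydrogenase that makes 2-oxoglutarate, rose by 0.93 ± 0.24 (adjusted p = 0.041), and 2 rose and 1 fell with the block. The call of Idh2 held only without ESC replicate 3 among the fits that left out 1 array (highest adjusted p 0.156, without ESC replicate 1). It ended with housekeeping scaling (adjusted p = 0.168), with values under 6 set to 6 (0.0606) and over all probes (0.0664).

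Among germline genes whose promoters are known to be methylated in somatic cells of the mouse, 11 of the 17 measured fell, 0 rose and the median was -4.57. The replicate block gave 13 lower and 0 higher. Tex19.1, a germline and placenta gene, fell by 6.79 ± 0.61 (adjusted p = 0.000983). Hormad1, of the meiotic chromosome axis, fell by 6.26 ± 0.20 (adjusted p = 5.76e-05), and Mael, of the piRNA pathway, fell by 5.74 ± 0.38 (adjusted p = 0.000358). With values under 6 set to 6, 6 of the 17 fell, and the change of Hormad1 was -1.65, that of Mael -4.86 and that of Tex19.1 -6.32. Before their starts 16 of these genes had 20 windows, with 3 to 31 CG dinucleotides and a median of 17.5. Their methylation in these cells was not measured, and its part in the fall was not tested.

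**Figure D5:**
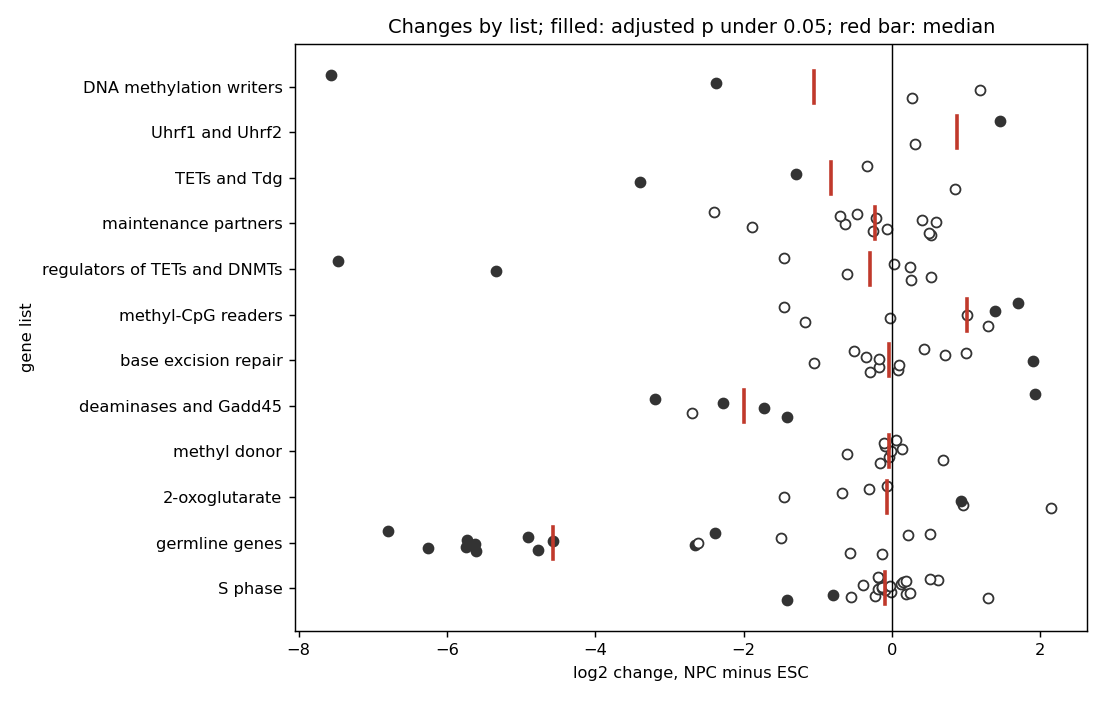
Log2 change of NPC minus ESC (x axis) of each measured gene in 12 lists (y axis), filled where the adjusted p is under 0.05, with the median of each list as a red bar. The germline genes have a median of -4.57, and the methyl donor genes have 0 filled points.

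The genes most alike to the members with the 3 largest changes were sought by the root mean square difference of centred log2 values over the 6 arrays. Nearest to Dnmt3l were Fbxo15 (0.191), Zfp296 (0.353) and Irak3 (0.359), which read 13.44, 12.72 and 11.00 in ESC and 6.02, 5.46 and 3.47 in NPC. Nearest to Tet1 were Ass1 (0.062), Grhl1 (0.10) and Gm7969 (0.139), with changes of -3.50, -3.55 and -3.45. Smc1b (0.091), Phldb3 (0.109) and C330018A13Rik (0.118) stood nearest to Dnmt3b, with changes of -2.28, -2.25 and -2.44. With 2 groups of 3 arrays this likeness is mostly a like step between the groups, and it is given as a description.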

How the data were processed

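RNA from the 6 samples was amplified once and coupled to Cy3 for Agilent arrays with 1 colour, per the labels' protocols. The authors' deposited log2 values cover 55681 probes; base 2 was inferred from their range. Sorted values were identical on all arrays, so the authors' values are quantile normalised, which hides any change of most transcripts in 1 direction. The submitters' processing notes name limma, with no version; background correction, filters, detection calls and slides: not given in the sources used here.

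The platform annotation gave 1 symbol to 30626 probes and none to 25055, and 30332 of the named probes matched the GRCm38.p6 RefSeq table by Entrez ID. Groups were compared with limma 3.58.1 in R 4.3.3 (two-sided, no covariate), over 1 probe per gene (highest mean) and, for other probes, over the whole table. The script was tested on simulated data. Members and lists were chosen with earlier results of these data known. Named are all members, the 3 largest called changes of each list (and the largest against its majority), the 2 brightest where none was called, the 2 largest called of each marker list, fixed regulators and markers, and the 3 genes nearest to each of the 3 members of largest change. Of 174 list genes 163 were on the array; the others were not analysed here. Promoter letters are RefSeq's.

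Across genes, same-numbered samples deviated together (r = 0.189 for replicate 1, 0.721 for replicate 2, 0.768 for replicate 3; each above 0.1), so the numbers in the titles were taken to pair the samples, and a fit with the replicate as a block was the alternative. For NPC replicate 1 the closest ESC sample was replicate 2 (r = 0.402). Other alternatives were a floor of 6, leaving out genes with a mean under 6, the mean of all probes, a fit over all probes, an intensity trend with robust variances, scaling on housekeeping genes and leaving out each array.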

Additional observations from a re-analysis of the deposited data

How the results depend on the processing

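The falls of Dnmt3b, Dnmt3l, Tet1 and Tet2 were called in each of the 14 alternatives, so the count of lower members was 4 throughout. The count of higher members, 1, became 3 with the replicate block and 0 with values under 6 set to 6, with the mean of all probes, with the fit over all probes and with housekeeping scaling, and it ran from 0 to 1 when 1 array was left out. Housekeeping scaling subtracts 1 value per array, so it shifted the change of every gene, and their median, by the same -0.17. Changes relative to that median are therefore equal under both scalings by construction. Under housekeeping scaling no member changed sign, and Uhrf2 lost its limma call (adjusted p = 0.112). Uhrf1, which was not called, went from 0.31 to -0.15 with the mean of all probes and to -0.16 without ESC replicate 3. Of the 4512 genes called, 4497 were also called with the replicate block, which called 7807; the floor of 6 called 2824, and leaving out 1 array gave 2764 (without ESC replicate 1) to 4567 genes. Over all probes 6407 were called, 11256 with the replicate block, and 3193 to 6424 with 1 array left out. The 22 called pathway genes became 39 with the block, 12 with the floor and 14 without genes of a mean under 6, and ran from 14 (without NPC replicate 1) to 23 with 1 array left out. With the mean of all probes the shift of Dnmt3a minus Dnmt3b was 4.07 and that of Dnmt3l minus Dnmt3b was -4.67, and the exact p of Uhrf2 minus Uhrf1 was 0.2. With 1 array left out the shifts ran from 3.47 to 3.67 and from -5.55 to -4.96 for these pairs, from 1.81 to 2.35 for Tet2 minus Tet1, from 2.93 to 3.27 for Tet3 minus Tet1 and from 1.04 to 1.35 for Uhrf2 minus Uhrf1. Paired by replicate they had an exact two-sided p of 0.25, the smallest that 3 pairs allow. Leaving out replicate 3 in both groups, chosen after seeing the data, gave 1 higher and 4 lower members. Of the summed squared deviations from the group means, NPC replicate 3 held 29.5%, ESC replicate 3 20.9% and ESC replicate 2 19.7%. No detection calls or counts were given, so which dim probes were above background is unknown.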
